A study of Mus musculus with 4 samples.

Results

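H3K23pr peaks were examined in the parts of the mouse genome that are most crowded with genes. Chromosomes 1 to 19 were divided into fixed bins of 1 Mb, the first starting at base 1. A bin was called gene-rich when it held the midpoints of at least 25 protein-coding genes of the RefSeq table (GRCm38.p6, the assembly of mm10), leaving out genes of the olfactory (Olfr) and vomeronasal (Vmn) receptor families. The rule used gene positions only and no peak value. It gave 135 of 2470 bins, on all 19 autosomes, with 25 to 67 genes each. These bins cover 5.486% of the bases and hold 4841 of 19207 genes, or 25.20%. Of the peaks called on the autosomes, 2672 of 53395 in the control list and 1392 of 41122 in the knockout list had their summit there, so that 4064 of the 96304 peaks of both complete lists were members.

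The libraries came from liver of male C57BL/6 mice, and the ages were not given in the sources used here. One genotype was RPN11 flox/flox, titled WT, which carries the floxed gene without the knockout. The other was the hepatocyte-specific RPN11 knockout, titled KO, in which liver cells other than hepatocytes keep the gene. Each genotype had 1 immunoprecipitate (IP) with an antibody against H3K23pr (PTM Biolabs, PTM-208) and 1 input, and nothing in the labels says how many mice each library represents. With 1 library per genotype no difference could be tested, and the 95% intervals below cover counting error only. They are exact Poisson for counts and exact binomial for shares and ratios, except for 1 interval named where it is given.

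H3K23pr is histone H3 with a propionyl group on lysine 23, one of the short-chain acylations that are made from acyl-CoA and are, like acetylation, usually found in open chromatin. Gene-dense regions of mammalian chromosomes replicate early, lie towards the nuclear interior and are rich in G and C, and hold many short, widely expressed genes beside tandem gene families such as histones, keratins or defensins. RPN11, the product of Psmd14, is the subunit of the proteasome lid that removes ubiquitin from substrates as they are degraded. Psmd14 itself lies in a bin with 3 genes and is not among the genes described here.

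The chosen bins were what the rule asks for and differed from other bins in more than gene number. Their genes were short, with a median length of 9458 bp against 25784 bp in the other 2335 bins, and 67.04% of their bases lay in a gene or within 2 kb of one, against 41.15%. They held 1.904 tRNA genes per Mb against 0.05762, and 1.948 miRNA genes per Mb against 0.3754. The promoters, taken as 250 bases before to 50 after each RefSeq start, had a median G+C content of 57.67% in both kinds of bin when receptor genes were left out. One of the 135 bins, chr4:1-1000000, had no peak in either list. It lies within the first 3 Mb, where no autosomal peak of either list starts (the lowest start is 3000343), and was kept because the rule includes it.

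The sequences that bear most directly on these peaks are promoters that hold a member summit, and they were few. Of 4816 RefSeq promoter windows in gene-rich bins (GRCm38.p6), 15 held a WT summit (0.3115%, interval 0.1744 to 0.5132) and 4 a KO summit (0.08306%, 0.02263 to 0.2125). The share of windows in other bins was not counted, but summits close to a start were sparse there too. Within 250 bp of a start, other bins had 11.15 WT and 5.786 KO summits per Mb, and gene-rich bins 8.255 and 1.834. The 15 windows belonged to 14 genes, since Ccdc116 had a pair of overlapping windows over 1 summit. Each promoter below is written 5′ to 3′ on the gene's strand, with the bases under the called peak in capitals. The first group has the WT windows of highest, median and lowest G+C content together with Arl2bp, which had 7 fragments, and the second group has all 4 KO windows. Pgls encodes 6-phosphogluconolactonase, an enzyme of the pentose phosphate pathway (chr8:71591934-71592233, plus strand). Arl2bp encodes a binding partner of the small GTPase ARL2 (chr8:94666841-94667140, plus strand). Krt12 is a keratin gene of the cornea (chr11:99422210-99422509, minus strand), and Slc22a29 is a gene of the organic anion transporter family (chr19:8218851-8219150, minus strand).
Pgls: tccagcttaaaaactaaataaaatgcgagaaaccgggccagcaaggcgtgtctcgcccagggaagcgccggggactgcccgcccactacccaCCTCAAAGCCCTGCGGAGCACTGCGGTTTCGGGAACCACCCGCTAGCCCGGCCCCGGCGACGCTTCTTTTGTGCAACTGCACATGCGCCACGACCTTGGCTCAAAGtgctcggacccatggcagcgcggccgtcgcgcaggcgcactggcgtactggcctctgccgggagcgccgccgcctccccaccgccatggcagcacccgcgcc
Arl2bp: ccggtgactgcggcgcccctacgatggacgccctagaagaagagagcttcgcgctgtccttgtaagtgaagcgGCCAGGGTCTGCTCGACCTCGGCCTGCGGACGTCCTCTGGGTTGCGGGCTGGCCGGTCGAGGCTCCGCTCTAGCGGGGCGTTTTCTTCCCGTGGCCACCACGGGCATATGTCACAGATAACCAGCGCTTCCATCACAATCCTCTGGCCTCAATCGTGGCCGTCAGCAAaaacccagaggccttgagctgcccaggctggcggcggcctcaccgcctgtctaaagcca
Krt12: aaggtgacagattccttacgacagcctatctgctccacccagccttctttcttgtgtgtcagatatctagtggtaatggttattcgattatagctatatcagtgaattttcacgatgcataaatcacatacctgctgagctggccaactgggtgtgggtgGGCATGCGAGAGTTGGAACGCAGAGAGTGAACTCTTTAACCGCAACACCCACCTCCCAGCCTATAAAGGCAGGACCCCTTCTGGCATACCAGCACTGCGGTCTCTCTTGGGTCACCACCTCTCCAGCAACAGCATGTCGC
Slc22a29: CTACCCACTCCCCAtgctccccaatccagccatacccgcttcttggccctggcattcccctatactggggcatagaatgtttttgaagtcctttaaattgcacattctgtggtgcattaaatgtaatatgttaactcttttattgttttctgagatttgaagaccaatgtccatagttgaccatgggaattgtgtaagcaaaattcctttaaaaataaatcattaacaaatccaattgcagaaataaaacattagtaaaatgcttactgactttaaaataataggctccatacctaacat
The KO summits lay at Pycard, which encodes the inflammasome adaptor ASC (chr7:127993818-127994117, minus strand), Stfa3, a gene of the stefin family of protease inhibitors (chr16:36455343-36455642, minus strand), Slc17a1, a phosphate transporter gene (chr13:23870023-23870322, plus strand), and the predicted gene Gm11554 (chr11:99804397-99804696, minus strand).
Pycard: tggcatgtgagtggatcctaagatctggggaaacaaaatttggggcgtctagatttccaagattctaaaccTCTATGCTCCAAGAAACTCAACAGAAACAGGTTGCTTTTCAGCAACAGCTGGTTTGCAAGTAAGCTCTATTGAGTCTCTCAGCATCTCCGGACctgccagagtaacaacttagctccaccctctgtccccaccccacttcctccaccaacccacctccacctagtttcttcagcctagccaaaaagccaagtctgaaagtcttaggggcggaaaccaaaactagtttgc
Stfa3: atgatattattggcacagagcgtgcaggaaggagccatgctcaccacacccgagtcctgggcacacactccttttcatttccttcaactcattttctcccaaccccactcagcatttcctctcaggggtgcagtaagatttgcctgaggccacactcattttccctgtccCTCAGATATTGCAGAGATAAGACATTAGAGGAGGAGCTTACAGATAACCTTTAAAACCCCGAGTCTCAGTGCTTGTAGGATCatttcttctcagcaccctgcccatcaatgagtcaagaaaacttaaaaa
Slc17a1: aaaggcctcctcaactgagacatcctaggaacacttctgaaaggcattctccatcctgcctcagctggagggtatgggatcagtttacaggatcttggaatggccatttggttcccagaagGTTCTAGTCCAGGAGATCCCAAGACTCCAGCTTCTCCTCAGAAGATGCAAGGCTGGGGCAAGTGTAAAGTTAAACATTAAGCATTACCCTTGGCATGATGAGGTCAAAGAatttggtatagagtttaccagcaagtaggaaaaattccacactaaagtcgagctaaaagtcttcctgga
Gm11554: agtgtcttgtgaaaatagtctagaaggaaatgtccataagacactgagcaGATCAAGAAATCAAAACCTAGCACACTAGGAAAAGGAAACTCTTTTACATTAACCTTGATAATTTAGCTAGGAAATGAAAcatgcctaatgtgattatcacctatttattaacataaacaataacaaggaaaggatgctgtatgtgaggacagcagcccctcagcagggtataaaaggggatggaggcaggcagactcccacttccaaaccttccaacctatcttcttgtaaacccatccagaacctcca

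The WT windows ran from 36.33% G+C at Slc22a29 to 67.33% at Pgls, and the KO windows reached at most 48.00%, at Pycard, with Gm11554 the lowest. The Arl2bp window had 64.00% G+C and 26 CpG, and its summit lay at position -151 relative to the start. Slc22a29 had a summit of 5 fragments, and Pgls and Krt12 had 4 each. In KO, Pycard and Gm11554 had 5 fragments and Slc17a1 and Stfa3 4 each, in windows of 0 to 3 CpG. Over all windows with a summit, the median G+C was 50.33% in WT and 46.17% in KO, against 57.67% over all promoters of gene-rich bins. On either strand, the GC box GGGCGG was present in 6 of 15 WT windows and 1 of 4 KO windows, and in 49.65% of all gene-rich promoters. CCAAT was present in 7 of 15 and 1 of 4, against 39.51%, and TATAAA in 4 of 15 and 1 of 4, against 11.21%. These are letter matches in few windows and were not tested.

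Gene-rich bins held slightly fewer WT peaks and far fewer KO peaks per Mb than the rest of the autosomes. WT had 19.79 peaks per Mb there (19.05 to 20.56) and 21.81 in other bins (21.62 to 22.00), a ratio of 0.9075 (0.8726 to 0.9435). KO had 10.31 per Mb (9.776 to 10.87) against 17.08 (16.92 to 17.25), a ratio of 0.6036 (0.5718 to 0.6367). A gene-rich bin thus held 0.5210 KO peaks per WT peak (0.4879 to 0.5560), and other bins held 0.7833 (0.7730 to 0.7936). The first of these ratios was 0.6651 times the second (0.6226 to 0.7106, by a normal approximation on the log scale).

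The same difference was present bin by bin. The median gene-rich bin had 19 WT peaks (lowest 0, highest 41) and 8 KO peaks (0 to 43), and the median other bin had 22 and 16. KO had fewer peaks than WT in 122 of 135 gene-rich bins, or 90.37%, against 71.9% of all bins. KO had fewer than 1 peak for every 2 WT peaks in 75 bins, or 55.56%, against 20.0% of all bins. KO numbers also varied more from bin to bin, with a variance 6.950 times the mean against 2.511 times in WT. The same order held in other bins, at 5.989 times in KO and 3.415 times in WT. Across the 135 bins the WT and KO numbers had a Spearman correlation of 0.573, given as a description, since both share the local base composition and mappability.

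**Figure D1:**
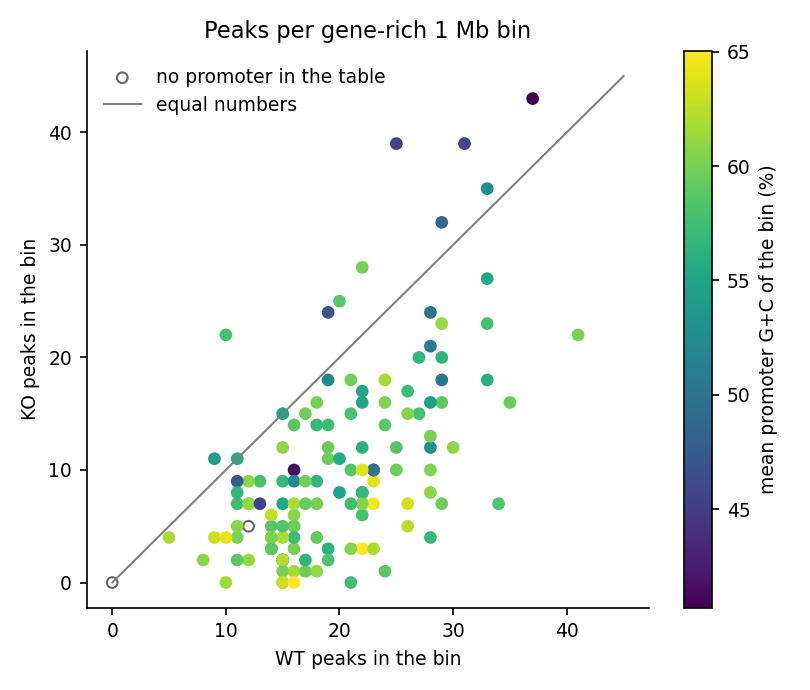
Number of WT peaks (x axis) and KO peaks (y axis) in each of the 135 gene-rich 1 Mb bins, 1 point per bin, coloured by the mean G+C of the bin's promoters in percent; open circles have no promoter in the table, and the line marks equal numbers. In 122 bins the point lies below the line, and the bins above it include several of low promoter G+C.

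The ratio was lower at higher gene number over most of the range, with no step at the limit of 25 genes. Bins without a gene had 0.8649 KO peaks per WT peak, bins of 5 to 9 genes 0.7956, bins of 10 to 14 genes 0.7270 and bins of 15 to 19 genes 0.6001. Just outside the limit, 28 bins of 23 or 24 genes had 0.5366, and just inside, 21 bins of 25 or 26 genes had 0.6190, with overlapping intervals. Within the gene-rich bins the ratio was 0.5821 (0.5259 to 0.6438) at 25 to 29 genes, 0.5331 (0.4777 to 0.5943) at 30 to 39 and 0.4083 (0.3535 to 0.4707) at 40 to 67. Over these 3 classes WT went from 21.83 to 17.66 peaks per Mb and KO from 12.71 to 7.211. Bins without a gene had 16.09 WT and 13.91 KO peaks per Mb, or 18.53 and 16.03 over the 278 of these 320 bins that lie outside the first 3 Mb.

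**Figure D2:**
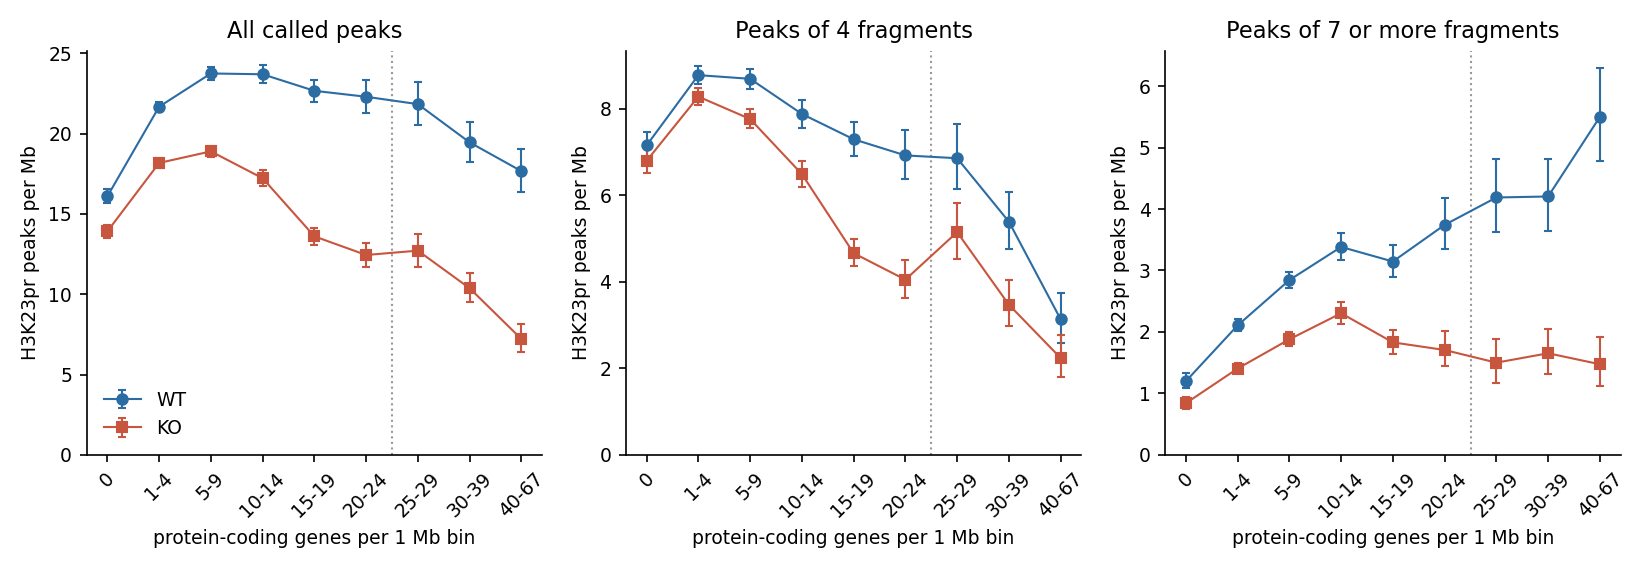
H3K23pr peaks per Mb (y axis, with exact Poisson 95% intervals) by the number of protein-coding genes per 1 Mb bin (x axis) for all peaks, for peaks of 4 IP fragments at the summit and for peaks of 7 or more; circles are WT, squares KO, and gene-rich bins are right of the dotted line. WT peaks of 7 or more fragments are at 5.500 per Mb in the bins of 40 to 67 genes, where KO has 1.474.

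The small difference in WT density joined opposite trends of weak and strong peaks. MACS2 reports for each peak the number of IP fragments over the summit, from 4 upwards in these lists. Weak and strong here mean few and many fragments, not fold. A call needs more fragments where the local background is higher. WT peaks of 4 fragments at a fold of 2.955 had a −log10 p of 3.127, close to the p cutoff of 0.001. In gene-rich bins 46.26% of WT peaks stood on the lowest common background described below, against 67.21% in other bins. The part of background in these trends was not tested. WT peaks of 4 fragments were 0.6408 times as dense in gene-rich as in other bins (0.5938 to 0.6906), those of 6 fragments 0.9896 times (0.9133 to 1.071), those of 7 fragments 1.669 times (1.494 to 1.860) and those of 8 to 10 fragments 2.203 times (1.920 to 2.519). From bins without a gene to bins of 40 to 67 genes, WT peaks of 7 or more fragments went from 1.198 to 5.500 per Mb, and peaks of 4 fragments from 7.150 to 3.132. The direction of the WT difference therefore turned with the threshold. With at least 5 fragments WT peaks were 1.069 times as dense in gene-rich as in other bins, and at a caller q of 0.05 or smaller 1.464 times.

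In KO the strong peaks were about as dense in gene-rich as in other bins. KO peaks of 4 fragments were 0.5115 times as dense in gene-rich bins (0.4672 to 0.5591), those of 7 fragments 0.9237 times (0.7676 to 1.103) and those of 8 to 10 fragments 1.045 times (0.8089 to 1.331). Peaks of 7 or more fragments went from 0.8395 per Mb in bins without a gene to 2.304 in bins of 10 to 14 genes and 1.474 in bins of 40 to 67 genes. The KO to WT ratio in gene-rich bins was accordingly lower for stronger peaks, going from 0.7051 (0.6277 to 0.7915) at 4 fragments to 0.4253 (0.3684 to 0.4900) at 6 and 0.2881 (0.2176 to 0.3772) at 8 to 10. In other bins it went from 0.8832 at 4 to 0.6074 at 8 to 10 fragments. At 11 or more fragments there were 12 WT and 10 KO members, too few to place the ratio of 0.8333 (0.3225 to 2.105). Other bins had 141 and 185 such peaks, a ratio of 1.312 (1.048 to 1.645), above that of every weaker class.

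**Figure D3:**
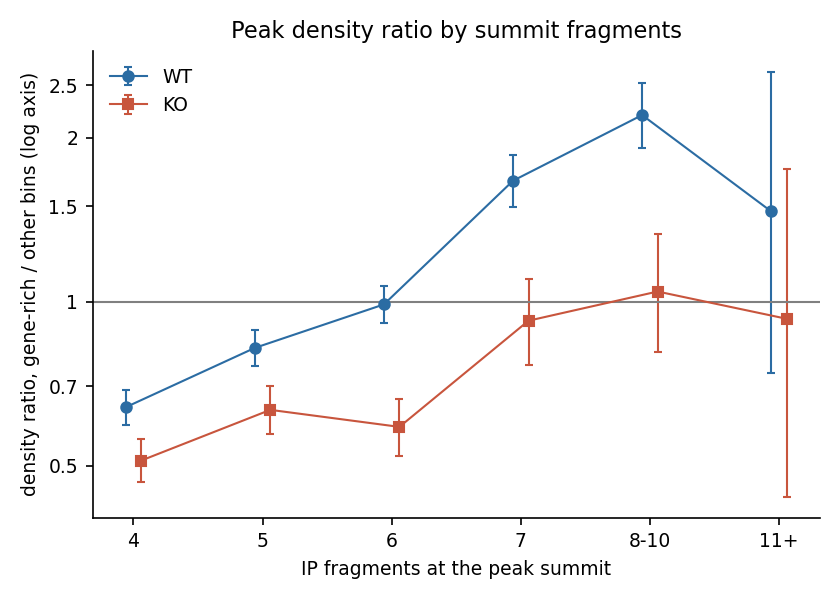
Peak density in gene-rich bins divided by that in other bins (y axis, log scale, with exact 95% intervals) by IP fragments at the summit (x axis); circles are WT and squares KO. WT goes from 0.6408 at 4 fragments to 2.203 at 8 to 10, and KO from 0.5115 to 1.045.

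Other values of the caller moved with gene number too. The lowest common background, which the caller assigns where no local input signal exceeds the genome-wide level, was 0.692 fragments in WT and 0.568 in KO. In gene-rich bins 46.26% of WT peaks and 64.94% of KO peaks stood on it, against 67.21% and 85.31% in other bins. This share went from 78.50% in bins without a gene to 33.53% in bins of 40 to 67 genes in WT, and from 96.29% to 56.93% in KO. Among peaks on this background only, the KO to WT ratio was 0.7314 in gene-rich and 0.9942 in other bins. The WT IP had fragments of 97 bp on average and the KO IP fragments of 71 bp, and the parts of fragment size, base composition and input depth in these ratios were not tested.

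The fold over the local background differed little between the kinds of bin. Its median, as the caller gave it, was 3.546 in gene-rich and 3.522 in other bins in WT, and 3.703 and 3.827 in KO. A caller q of 0.05 or smaller was reached by 402 WT members, or 15.04% (13.71 to 16.46), against 9.61% of all autosomal WT peaks. In KO it was reached by 384 members, or 27.59% (25.25 to 30.02), against 27.4% of all KO peaks. By this stricter limit the numbers in gene-rich bins were nearly equal, with 0.9552 KO peaks per WT peak, while other bins had 2.303. The q was given for each list on its own, and the limit fell at a lower fragment number in KO than in WT. WT peaks of 6 fragments on the lowest common background had a −log10 q of 1.068 and missed it. KO members of 7, of 8 to 10 and of 11 or more fragments numbered 129, 70 and 10, together fewer than the 384 at the limit. Some KO members of 6 or fewer fragments therefore reached it, and these ratios set unlike limits side by side. At equal fragment numbers the ratio in gene-rich bins was 0.4253 at 6, 0.3573 at 7 and 0.2881 at 8 to 10 fragments. Gene-rich bins stayed below other bins in KO peaks per WT peak both over all called peaks and at the q limit.

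The WT members of 11 or more fragments lay mostly at separate sites, while 4 of the 10 KO members lay close together on chromosome 2. Within Vps45, a vesicle sorting gene, the sites of both lists overlapped, with 82 WT fragments over a background of 26.11 and 63 KO fragments over 3.867. On chromosome 2, outside genes, WT had a peak of 26 fragments (summit 181917708) and KO had 4 peaks, with summits from 181928452 to 181931554. The KO peaks had 23 (summit 181929287), 13, 11 and 11 fragments at folds of 9.424, 6.926, 5.842 and 2.466. None of these WT and KO peaks overlapped a peak of the other list. A KO peak of 21 fragments lay outside genes on chromosome 6. The Muc3 site, in an intestinal mucin gene, had 16 fragments in KO at a fold of 10.84. WT had 11 fragments at Usp37, a deubiquitylase gene, at a fold of 7.093, and 12 at Dnm1, which encodes dynamin 1. Pdzk1, a scaffold gene for membrane transporters, held 2 WT peaks of 11 fragments each.

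Within gene-rich bins the peaks were less dense near gene ends than elsewhere, KO peaks more so than WT peaks. WT had 494 summits within 2 kb of an end of a protein-coding gene, 18.49% of its members (17.03 to 20.01), and KO had 165, or 11.85% (10.20 to 13.67), where 22.43% of the bases lie. Per Mb of such bases this was 16.31 in WT and 5.448 in KO. Outside genes the densities were 22.05 and 12.38 per Mb, and inside genes farther from the ends 19.88 and 11.23. The KO to WT ratio was 0.3340 near gene ends (0.2783 to 0.3992), 0.5647 inside genes and 0.5617 outside. In other bins the ratio near gene ends was 0.6315 (0.5919 to 0.6736).

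Distance from the nearest RefSeq start gave a finer view. Within 250 bp of a start, gene-rich bins held 18 WT summits (8.255 per Mb, 4.892 to 13.05) and 4 KO summits (1.834 per Mb, 0.4998 to 4.697). From 250 to 1000 bp there were 93 and 22, or 15.64 and 3.700 per Mb. Beyond 20 kb the densities were 20.76 and 12.80 per Mb. The KO to WT ratio went from 0.2222 (0.05470 to 0.6746) in the nearest class over 0.4192 at 2 to 5 kb to 0.6165 (0.5547 to 0.6846) beyond 20 kb. Other bins were also lowest in the nearest class, at 11.15 WT and 5.786 KO summits per Mb, against 21.47 and 17.12 beyond 20 kb. Their ratio went from 0.5190 to 0.7972, so that the ratio was lower in gene-rich bins in each of the 7 distance classes.

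**Figure D4:**
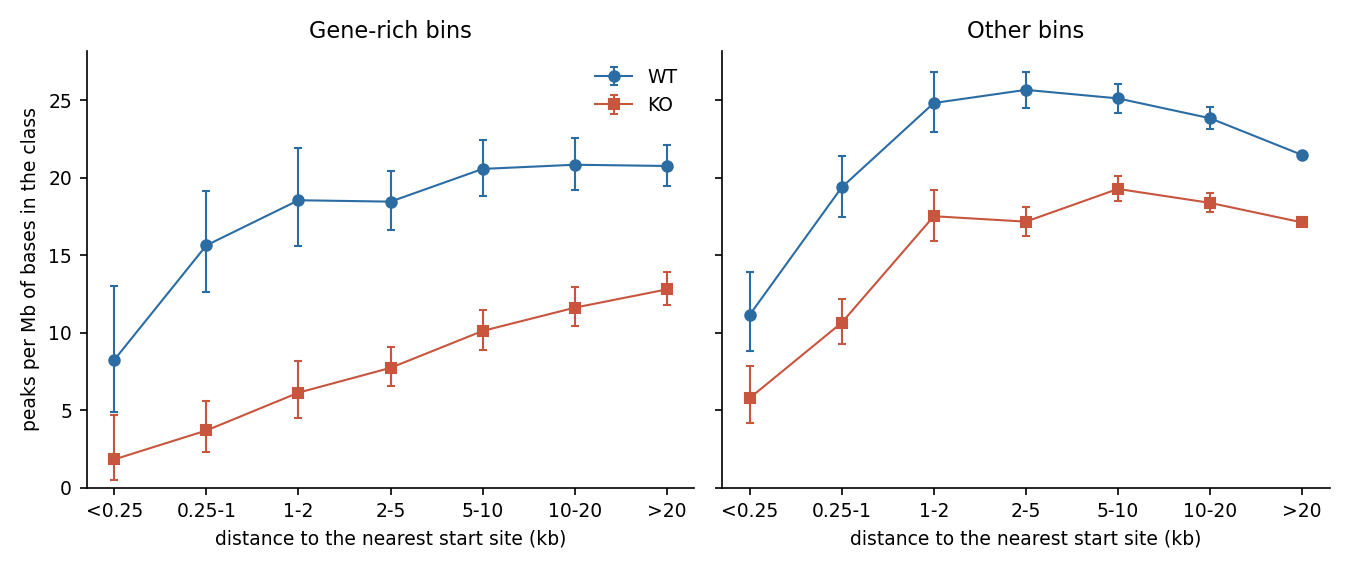
Peaks per Mb of bases in each class (y axis, with exact Poisson 95% intervals) by distance to the nearest RefSeq start in kb (x axis), in gene-rich bins and in other bins; circles are WT and squares KO. Both lists are lowest in the class nearest to a start, and in gene-rich bins KO is at 1.834 per Mb there and at 12.80 beyond 20 kb.

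Base composition of the promoters went with the KO number more than with the WT number. The 132 gene-rich bins with promoters in the table were divided into 3 equal groups by the mean G+C of their promoters. KO had 15.25 peaks per Mb in the group of lowest G+C (40.68% to 57.36%), 9.545 in the middle group and 6.682 in the highest (60.05% to 65.04%). WT had 21.82, 19.61 and 18.68. The KO to WT ratio was 0.6990 (0.6324 to 0.7722), 0.4867 (0.4321 to 0.5475) and 0.3577 (0.3120 to 0.4091), at median gene numbers of 33, 35 and 31.5. Other bins with at least 5 promoters had 0.8408, 0.6690 and 0.6424, lower at higher G+C as well and higher than gene-rich bins in each group. The Spearman correlation with mean promoter G+C over the 132 bins was -0.478 for KO and -0.225 for WT, and with gene number -0.399 and -0.312, again as descriptions.

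The low KO number extended beyond the gene-rich bins themselves. Bins directly beside one, with a median of 14 genes, had 0.5665 KO peaks per WT peak, and bins 2 away, with a median of 6 genes, had 0.6774. The ratio was 0.7276 at 3 to 5 bins, 0.8139 at 6 to 10 bins and 0.8218 farther away. Median gene number changed from 6 to 4 over the last 4 of these classes.

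By chromosome, the ratio was lower in gene-rich than in other bins of the same chromosome on 17 of 19, and on 11 of these the intervals did not overlap. It was lowest on chromosome 14, with 72 WT and 22 KO peaks (0.3056, 0.1804 to 0.4984), against 0.7687 in the other bins there. The exceptions were chromosome 6, with 106 and 95 peaks (0.8962 against 0.8389), and chromosome 13, with 88 and 107 peaks (1.216, 0.9085 to 1.631, against 0.8025). Chromosome 13 had 4 gene-rich bins, which include the main histone clusters and a cluster of zinc finger genes.

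**Figure D5:**
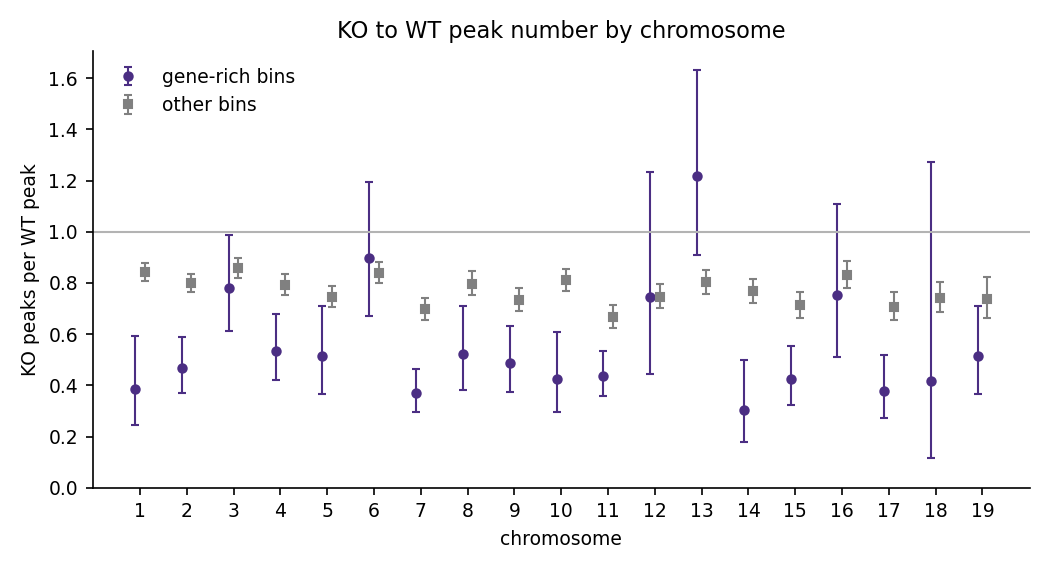
KO peaks per WT peak (y axis, with exact 95% intervals) on each autosome (x axis), in gene-rich bins (circles) and in other bins (squares); the grey line marks equal numbers. Gene-rich bins lie below other bins on all chromosomes except 6 and 13.

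Single bins ranged from a complete lack of KO peaks to an excess. The bin with most genes, chr18:37000001-38000000 with 67 genes of which 57 are protocadherins, adhesion molecules of neurons, had 12 WT and 5 KO peaks. Next was chr7:45000001-46000000 with 66 genes, which had 21 WT peaks and 0 KO peaks. The bin of 61 genes in the major histocompatibility complex, chr17:35000001-36000000, with 7 H2 genes and 6 Ly6 genes, had 24 WT peaks and 1 KO peak. The lipocalin bin chr2:25000001-26000000, with 60 genes, had 28 and 4, and chr14:54000001-55000000, which had the lowest KO minus WT number, had 34 and 7. The most WT peaks, 41, were in chr5:31000001-32000000, beside 22 in KO, and outside the first 3 Mb the fewest of both lists together, 5 and 4, in chr17:46000001-47000000. KO had 0 peaks in 4 further bins that had 10 to 16 WT peaks, on chromosomes 2, 9, 10 and 11. The exact Poisson upper limit of a count of 0 is 3.689 peaks.

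KO had more peaks than WT in 10 gene-rich bins, with 298 KO and 235 WT peaks in all. The largest excess was in the bin chr13:23000001-24000000, where 31 of 42 genes have symbols of the histone form and where WT had 25 and KO 39 peaks. Of the further bins with histone clusters, chr13:21000001-22000000, with 17 histone genes, had 29 and 32, and chr3:96000001-97000000, with 10, had 26 WT and 17 KO peaks and no excess. The next largest excess was in chr8:71000001-72000000, a bin of 36 genes with no leading family, which had 10 WT and 22 KO peaks. The bin of Clec and Klr genes, which encode lectin-like proteins, at chr6:129000001-130000000, had 43 KO peaks, the most of any gene-rich bin, beside 37 in WT. The Lce and Sprr bin of skin barrier genes at chr3:92000001-93000000 had 31 and 39, the interferon alpha bin chr4:88000001-89000000 had 33 and 35, and the zinc finger bin chr13:67000001-68000000 had 19 and 24. The kallikrein bin chr7:43000001-44000000 had 9 and 11. Bins of mixed genes were chr2:130000001-131000000 with 22 and 28, and chr3:95000001-96000000 with 20 and 25. Their mean promoter G+C was 59.92% and 58.87%, and that of the chr8 bin 57.99%. The mean promoter G+C of these 10 bins had a median of 50.66%, and that of the 5 bins with WT peaks but 0 KO peaks had a median of 61.48%.

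Tandem families were then set apart, in a division chosen after the bin values were seen. In 26 bins at least 25% of the genes share the leading letters of their symbols, as in clusters of keratins, histones or defensins. These bins had 562 WT and 426 KO peaks, a ratio of 0.7580 (0.6668 to 0.8613). KO was above WT in 7 of them, all among the excess bins described above, and these add to the ratio. The median bin of this class had 22 WT and 11 KO peaks. In 34 bins 10% to under 25% of the genes do so, with 728 and 380 peaks, a ratio of 0.5220 (0.4599 to 0.5917). In 74 bins where under 10% of the genes do so, there were 1382 and 586 peaks, a ratio of 0.4240 (0.3843 to 0.4674), and KO was above WT in 2. In the order given, the median gene number was 33.5, 30.5 and 34, but the median of mean promoter G+C was 52.73%, 58.05% and 60.05%. Family structure and base composition therefore cannot be told apart here.

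A gene was called marked when a summit lay within 2 kb of one of its ends. Of the 4948 protein-coding genes of gene-rich bins, receptor genes included, 535 carried a mark in WT (10.81%, 9.960 to 11.71) and 161 in KO (3.254%, 2.777 to 3.787). Over all autosomal genes the shares were 14.2% in WT and 7.83% in KO. Among the gene-rich genes 22 had a mark in each list, 513 had only a WT mark and 139 only a KO mark. The 22 genes were 4.112% of the WT-marked and 13.66% of the KO-marked genes there, against 10.18% and 18.47% over all autosomal genes, where marks are also more frequent. Because genes lie close together, 81 of the 494 WT summits near a gene end were near 2 or more genes, and 9 of the 165 KO summits were.

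Gene families are given next by the number of members marked near an end. Each list is to be read against the share over all gene-rich genes, 10.81% in WT and 3.254% in KO, and the counts of single lists are small. Of 28 ribosomal protein genes 6 carried a WT mark and 0 a KO mark, among them Rpl23 (7 fragments, fold 4.510) and Rps21 (6 fragments, 4.138). Of 11 genes with Nduf symbols, which encode subunits or assembly factors of mitochondrial complex I, 5 were marked in WT and 0 in KO, among them the assembly factor gene Ndufaf1 (9 fragments, 4.554), whose summit is also within 2 kb of the histone gene H3f3c, and Ndufb10 (6 fragments, 3.994). Of 26 mitochondrial ribosomal protein genes 0 were marked in either list. The 15 genes with proteasome subunit symbols had 2 marked in WT and 1 in KO. These were Psmd13, a subunit of the lid that also contains RPN11, in both lists, and in WT Psmc3ip, whose product binds a proteasome ATPase but is not itself a subunit.

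Developmental and epithelial families had WT marks as well. Of 16 Hox genes, which pattern the body axis, 6 were marked in WT and 0 in KO, with Hoxb5 and Hoxb6 sharing 1 summit of 6 fragments. Of 53 keratin genes 7 had a WT mark and 0 a KO mark, the strongest at Krt18, a keratin of hepatocytes and other simple epithelia (8 fragments, 5.320). Of 26 kallikrein genes 5 had a WT mark and 0 a KO mark, among them Klk6 (6 fragments, 4.138). The 33 major histocompatibility genes had 6 in WT, including H2-T23 (8 fragments, 3.672) and H2-Q2 (6 fragments, 3.946), and 1 in KO, H2-M10.5 (5 fragments, 3.827).

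Several families carried marks of both lists. The 126 zinc finger genes had 16 marked in WT, such as Zfp7 (8 fragments, 5.320), and 12 in KO, such as Zfp729b (7 fragments, 5.102). The 65 histone genes had 7 in WT, from 6 distinct summits, and 5 in KO, from 4, with H2ac1 the strongest in KO (7 fragments, 4.624). At H3c8 the WT summit had 7 fragments and the KO summit, at another position, 5. The 41 keratin-associated protein genes, which encode hair proteins, had 1 in WT, Krtap7-1 (8 fragments, 5.320), and 4 in KO, with Krtap3-3 the strongest (7 fragments, 5.102). The 14 Ly6 genes, which encode small GPI-anchored surface proteins, had 4 in WT and 2 in KO, among them Ly6f (9 fragments, 6.378) in KO only. The 57 protocadherin genes had 2 and 2, and the 14 chemokine genes 1 and 2.

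Of 21 cytochrome P450 genes in gene-rich bins, 3 carried a WT mark (14.29%) and 2 a KO mark (9.524%), small counts against shares of 10.81% and 3.254% over all gene-rich genes. Cyp27a1, an enzyme of bile acid synthesis, had summits of 7 WT and 6 KO fragments, and Cyp2e1, an ethanol-oxidising enzyme of the hepatocyte, had 4 fragments in KO. Of 7 apolipoprotein genes and 2 serpin genes 0 were marked near an end in either list.

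The marked genes of lowest caller p were of mixed functions. In WT they were led by Syce1, a gene of the meiotic synaptonemal complex (10 fragments, fold 5.831), followed by a summit of 9 fragments shared by Lrrc74b and the ATP-gated channel gene P2rx6 (5.846). Lrrc25 (10 fragments, 5.175) and Ganab, which encodes a glucosidase of glycoprotein folding (9 fragments, 5.223), came next, and Elob and Srrm2 shared a summit of 8 fragments. In KO, Ly6f was followed by the transporter gene Slc17a3 and the vomeronasal receptor gene Vmn2r26 with 8 fragments each (5.740). Lix1l had 9 fragments (5.451), Coprs, a partner of the arginine methyltransferase PRMT5, had 9 (5.323), and Ang, Csta2, Defb1, Krtap3-3 and Luc7l3 had 7 each (5.102). Apart from Lrrc74b, with 5 fragments in KO, none of these WT genes was marked in KO, and none of these KO genes in WT. Sharing was low over all marked genes of gene-rich bins too. Of the WT-marked genes there 4.112% were also marked in KO, and of the KO-marked genes 13.66% in WT. The lack of shared marks therefore does not set the named genes apart.

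Genes marked in both lists were rarely marked at the same place. Psmd13 and its neighbour Sirt3, a mitochondrial deacylase gene, shared 1 summit in WT (140883519 on chromosome 7) and 1 in KO (140882963), each of 8 fragments, and the peaks did not overlap. Ly6g2 had 4 fragments in WT and 7 in KO, Ccdc163 had 5 and 7, and Ctdspl2 and Clec2e had 6 and 5. Over all members, 10 WT peaks overlapped a KO peak, 0.3743% (0.1796 to 0.6872), against 0.837% of all autosomal WT peaks. Likewise 10 KO members overlapped a WT peak, 0.7184% (0.3450 to 1.317), against 1.08% of all KO peaks. In both lists the share was below that of other bins, 0.8615% and 1.097%, with intervals that did not overlap in WT but overlapped in KO. The peaks of the other list were also sparser in gene-rich bins. KO had 10.31 per Mb there against 17.08 in other bins, and WT 19.79 against 21.81. The shares were not scaled for this, so they do not show less overlap than the densities would give.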

How the data were processed

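Peak lists of H3K23pr ChIP-seq from WT and KO liver were used, 1 IP against 1 input per genotype. The submitters' processing notes name cutadapt 1.9.3, Bowtie2 2.2.4 and the mouse build mm10. MACS2, per the file headers, called peaks in paired-end mode at a p cutoff of 0.001, keeping at most 2 fragments with the same ends, per library and without pooling. The IP libraries held 13615838 (WT) and 15468265 (KO) fragments after duplicate filtering, and the inputs 9385834 and 10000823. At this depth most peaks rest on 4 to 6 fragments.

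The deposited pileup is a signal, the number of IP fragments over the summit. The deposited fold, as the caller gave it, is a ratio of pileup to local background with the same constant added to both. At few fragments it is therefore lower than the plain ratio. The deposited p-value and q-value of each peak are on the −log10 scale. Peak length and position were deposited by the authors in bp. The fold, p and q are the authors' own and only describe, rank or filter peaks within a list. The background of a site was recomputed from its pileup and fold.

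Peaks were placed in bins by summit with Python 3.11.15, pandas 2.3.3 and SciPy 1.17.1. Density is peaks per Mb. KO to WT is the ratio of peak numbers, with no scaling for depth. Overlap needs at least 1 bp. No test was made, since each group has 1 library. The counting code was tested on simulated peaks. Genes with a Gm or Rik symbol were not named, apart from 1 promoter. Named genes were the 10 marked genes of lowest caller p per list, up to 10 marked in both, genes with a promoter summit, and up to 2 per gene list and genotype. Named bins were those with most genes, most peaks, fewest peaks and the largest differences. Further bins, sites and promoters were chosen after their values were seen. The members and gene lists were chosen with earlier results of these data known. RefSeq promoters of chromosome 18 were not used here. Gene number limits, bin position, peak strength, comparison bins and single chromosomes were varied.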

Additional observations from a re-analysis of the deposited data

How the results depend on the processing

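The KO to WT ratio in gene-rich bins relative to other bins stayed below 1 in every alternative run, from 0.4148 to 0.7357, and from 0.6357 to 0.6858 with each chromosome left out in turn. The WT density ratio of gene-rich to other bins turned above 1 with at least 5 fragments (1.069), at a caller q of 0.05 or smaller (1.464) and with at least 8 fragments (2.152), where the KO density ratio also reached 1.029. The limits of 8 fragments, of the lowest common background and of genes or bins outside the first 3 Mb were chosen after seeing the data.

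In what follows the values are, in order, the WT density ratio, the KO density ratio, the KO to WT ratio relative to other bins and the KO to WT ratio within gene-rich bins. With 30 genes per bin they were 0.8559, 0.5289, 0.6180 and 0.4815, with 40 genes 0.8114, 0.4277, 0.5271 and 0.4083, and at the lowest common background 0.6246, 0.4595, 0.7357 and 0.7314. With 20 genes the first pair was 0.9525 and 0.6450. With each bin starting at the middle of the former one the last 3 were 0.5465, 0.6086 and 0.4786. With at least 5 fragments the KO density ratio was 0.6718 and the KO to WT ratio 0.4541. At a q of 0.05 the last pair was 0.4148 and 0.9552, and with at least 8 fragments 0.4782 and 0.3137. With receptor genes counted the KO density ratio was 0.6492. Peaks at a q of 0.05 made up 11.08% of WT members and 7.990% of WT peaks in other bins at the lowest common background. The share of KO members near gene ends over the share of bases was 0.4537 at 1 kb and 0.6501 at 5 kb. The causes of these differences were not tested. The other 71 values kept within the counting error of the reported ones.

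No paired analysis was possible because each genotype has 1 library. Peaks of 4 to 6 fragments made up most of each list, and at this depth the difference of single bins or single genes between the genotypes has no replicate check.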
